A study of Mus musculus with 2 samples.

Results

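The 35 genes described here, of 18193 named genes on the platform, encode factors of ribosome biogenesis and subunits of RNA polymerase I. They were measured by 72 of the 45037 probe sets on each of 2 Affymetrix 3' expression arrays, chosen because the platform annotation names exactly 1 of the 35 genes for each of them. All 35 gene names matched by symbol. The arrays held total RNA of mouse hematopoietic stem cells (HSC, the bone marrow cells that renew all blood lineages). One array carried RNA labelled SIRT6 knockout and the other RNA labelled wild type, both from animals aged 3 months. The labels do not describe how the Sirt6 allele was disrupted, how the cells were sorted or how many animals gave RNA. Sirt6 is a nuclear NAD-dependent deacylase of histones, and the comparison asks how transcript levels differ between cells with and without it. With 1 array per genotype there is no replicate, so no SD between samples and no test could be computed, and every difference below compares these RNA samples.

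Ribosomes are built mostly in the nucleolus. RNA polymerase I transcribes a long precursor of the ribosomal RNAs, small nucleolar ribonucleoproteins (snoRNPs) methylate and pseudouridylate it, and large assemblies of processing factors cut it and fold it with ribosomal proteins into the small and the large subunit. The genes of these steps are widely expressed, are known targets of Myc and are abundant in growing cells, and HSC are known for a low rate of protein synthesis.

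Because Myc and its partner Max bind the E-box CACGTG, the promoters of the genes were searched for it, and the stretches that hold it are shown here as the sequence context of the values that follow. RefSeq promoter windows (GRCm38.p6, from 250 bases before to 50 bases after each annotated start) were found for 30 of the 35 genes, and Bop1, Fbl, Npm1, Rrs1 and Wdr36 were not matched. The letters CACGTG, which read the same on both strands, occurred in 7 of 33 windows (21.2%), against 7.15% of all 32851 windows in the table and 9.93% of the 11977 windows of measured genes. In the windows of other genes of the same pathway, listed further on, the share was 19.6%. The 7 stretches of 30 bases are given 5′ to 3′ on the strand of the gene, with the E-box in capitals.
Nop2, chr6:125131811-125131840, plus strand: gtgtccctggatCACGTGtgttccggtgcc
Utp18, chr11:93885769-93885798, minus strand: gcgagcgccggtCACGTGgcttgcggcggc
Pes1, chr11:3963965-3963994, plus strand: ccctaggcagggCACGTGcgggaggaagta
Wdr43, chr17:71616220-71616249, plus strand: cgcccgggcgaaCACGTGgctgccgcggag
Tsr1, chr11:74898092-74898121, plus strand: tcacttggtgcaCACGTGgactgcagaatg
Utp20, chr10:88826765-88826794, minus strand: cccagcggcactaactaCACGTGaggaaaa
Mybbp1a, chr11:72441347-72441376, plus strand: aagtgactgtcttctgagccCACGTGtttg
In Nop2 and Utp18 the E-box begins 60 and 20 bases before the annotated start. In the other 5 it lies just inside the transcribed region, from base 3 in Pes1 to base 41 in Mybbp1a.

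A second motif, CCGGAAG, the core bound by Ets factors, was searched on both strands, and no match in these windows overlapped an E-box. It occurred in 11 of the 33 windows (33.3%), against 8.86% of all windows and 17.2% of those of measured genes. The share in the windows of the other pathway genes was higher, 42.4%. Nop2, which encodes an rRNA methyltransferase of the large subunit, and Utp18 hold both motifs before their start. Nop2 is shown because both fall within the last 100 bases before it. Its 100 bases before the start (chr6:125131783-125131882, plus strand) follow, with both motifs in capitals.
Nop2: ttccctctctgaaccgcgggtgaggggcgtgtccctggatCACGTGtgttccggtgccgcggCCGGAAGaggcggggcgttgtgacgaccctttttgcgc

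The signals are MAS5 values, a linear brightness per probe set that depends on the probes' own affinity, so levels were compared only between arrays and not between genes. A gene was represented by its brightest probe set, and a floor was set at a signal of 60.5, the median over all probe sets. Ratios are log2 of the array labelled knockout over the array labelled wild type. All 35 genes passed the floor on both arrays. Their signals ran from 307 (Polr1e) to 7819 (Npm1) for the RNA labelled knockout and from 280 to 7694 for wild type.

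No gene of the group differed by as much as 1.5-fold between the arrays. Over all 11547 measured genes, 4.35% did. The median log2 ratio of the 35 genes was 0.06 (quartiles 0.0061 and 0.17), against 0.0023 over all measured genes, and 26 of 35 read higher on the array labelled knockout, where 50.4% of all measured genes did. Wdr36, Utp20 and Bop1 were at least 1.2-fold higher and none was at least 1.2-fold lower. The shares of all measured genes were 10.4% for higher and 11.5% for lower. The 3 of 35 therefore lie near the share of all genes.

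The only error the files allow is the disagreement among a gene's own probe sets, which had an SD of 0.22 on the log2 scale over 4632 genes. It holds no error between animals or RNA samples. Of the 35 genes, 5 lay farther from 0 than this SD, all of them higher on the array labelled knockout (Wdr36, Utp20, Bop1, Wdr12 and Wdr3). Of all measured genes, 28.3% lay farther from 0 than it. The genes of the group sit in the brighter part of the arrays, where ratios scatter less. Among the 6650 genes above a signal of 250 on both arrays, a limit that all 35 met and that was set after the values were seen, 6% were higher by 1.2-fold or more, 7.25% were lower by as much and 49.3% read higher by any amount. Their median log2 ratio was -0.0024, and 68 of the 6650 were higher and 69 lower by 1.5-fold or more. Between probe sets above 250 on both arrays the SD was 0.17 over 1997 genes, and 0.21 over 16 genes of the group. Of the 35 genes, 10 lay farther from 0 than the 0.17 of all genes, all of them higher on the array labelled knockout. Of the 6650 genes, 29.7% did so in either direction. Only the 5 genes named above also lay farther from 0 than the group's own 0.21.

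**Figure D1:**
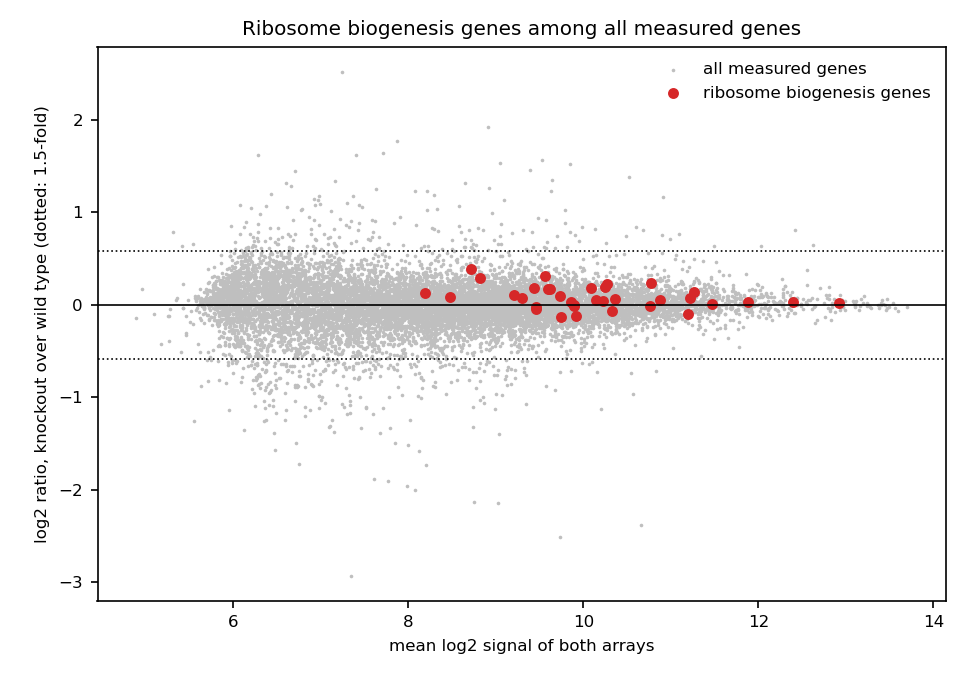
Log2 ratio of the array labelled knockout over the array labelled wild type (vertical axis) against the mean log2 signal of both arrays (horizontal axis), 1 point per measured gene, with dotted lines at 1.5-fold. The 35 ribosome biogenesis genes (red) lie inside the dotted lines, between -0.13 (Utp18) and 0.38 (Wdr36).

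Among the abundant nucleolar proteins the arrays read nearly alike. Npm1, nucleophosmin, a nucleolar chaperone of histones and ribosomal proteins, read 7819 for knockout and 7694 for wild type, a log2 ratio of 0.023, and its second probe set gave 0.016. Ncl, nucleolin, which binds nascent pre-rRNA, read 5445 against 5330 (log2 0.03). Nolc1, a chaperone of snoRNPs, read 876 against 821 (log2 0.09). These differences are all under the SD between probe sets, and further probe sets of Ncl (-0.40 and -0.18, beside 0.06) and Nolc1 (-0.37, beside 0.03) pointed the other way.

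The RNA polymerase I subunits in the group also stayed within 1.2-fold on their brightest probe sets. Polr1a, the largest subunit, which forms the catalytic centre together with Polr1b, read 701 against 711, a log2 ratio of -0.019. Polr1b, the second-largest subunit, read 365 against 345 (log2 0.08). Polr1e, which belongs to a subcomplex that acts in initiation, read 307 against 280 (log2 0.13), and its other probe set read 269 against 219 (log2 0.29). The further measured probe sets of Polr1a gave 0.11 and 0.22. Of the 6 measured probe sets of these 3 subunits, 5 read higher on the array labelled knockout, and the exception was the brightest of Polr1a. Over all measured probe sets that name 1 gene the share was 49.2%. Probe sets of a gene are not replicates, and 3 of the 6 belong to Polr1a.

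Mybbp1a and Rrp1b, nucleolar proteins linked to rRNA transcription and to protein phosphatase 1 respectively, read slightly higher on the array labelled knockout. Mybbp1a read 2585 against 2347 (log2 0.14). Its second probe set read 716 against 481 (log2 0.57, or 1.49-fold), the highest ratio of any probe set of the group. Rrp1b read 834 against 741 (log2 0.17), with further probe sets at 0.09 and -0.36.

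The snoRNP proteins had log2 ratios from -0.06 to 0.07 on their brightest probe sets. Of the box C/D proteins, Fbl, fibrillarin, the methyltransferase, read 3819 against 3738 (log2 0.03). Its partners Nop56 and Nop58, which hold the guide RNA, read 1910 against 1836 (log2 0.06) and 1732 against 1753 (log2 -0.018). Of the box H/ACA proteins, Dkc1, dyskerin, the pseudouridine synthase, read 2854 against 2826 (log2 0.014). Nhp2 read 2448 against 2328 (log2 0.07) and Gar1 1254 against 1309 (log2 -0.06). The second probe sets of Nop56 (-0.12), Fbl (-0.03) and Nhp2 (0.17) differed from these values, those of Nop56 and Fbl in sign. A second probe set of Dkc1 lay farthest off, at 1031 against 1537 (log2 -0.58), the lowest ratio of any probe set of the group, while the remaining one read 377 against 375.

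The small subunit processome, the assembly that cuts the 18S rRNA out of its precursor, held the widest spread, with a median of 0.15 over 10 genes, 6 of them above 0. Wdr36 read 479 against 367 (log2 0.38, or 1.30-fold), and its second probe set read 455 against 380 (log2 0.26). Utp20, a large scaffold protein, read 842 against 679 (log2 0.31) on its single probe set. Wdr3 read 1339 against 1144 (log2 0.23), Utp14a, a helicase cofactor, 1303 against 1137 (log2 0.20) and Wdr43 741 against 652 (log2 0.18). Rrp9, a U3 snoRNP protein, had a log2 ratio of 0.11. On the other side were Utp18 at 823 against 900 (log2 -0.13), Nop14 at -0.04, Heatr1 at -0.018 and Wdr75 at -0.0018.

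Wdr3, Wdr36 and Utp18 encode parts of the UtpB subcomplex, and their ratios spanned -0.13 to 0.38. Heatr1, Wdr43 and Wdr75 encode parts of UtpA, the subcomplex that joins the pre-rRNA first, and spanned -0.018 to 0.18. In late maturation of the small subunit, Nob1, the endonuclease that trims the end of 18S rRNA, read 644 against 613 (log2 0.07). Tsr1, an assembly factor of late precursors, read 925 against 1004 (log2 -0.12), and its other probe set gave -0.21.

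The PeBoW complex, in which Pes1, Bop1 and Wdr12 together serve processing of the large-subunit rRNAs, had the highest median of the roles, 0.24 over 3 genes. Bop1 read 499 against 407 (log2 0.29), Wdr12 1904 against 1611 (log2 0.24) and Pes1 822 against 731 (log2 0.17). Their dimmer probe sets did not repeat this: Bop1 gave 0.014 (151 against 150), Wdr12 -0.38 (339 against 442) and Pes1 -0.50 (180 against 255). The other large subunit factors lay closer to 0 on their brightest probe sets, with a median of 0.04 over 6 genes. Ebna1bp2 read 1158 against 1023 (log2 0.18), Rrs1, which helps to bring in the 5S rRNA, 1344 against 1289 (log2 0.06), and Nip7 1152 against 1112 (log2 0.05). Nop2 and Nop16 had log2 ratios of 0.04 and 0.03. Further measured probe sets gave 0.24 and -0.02 for Ebna1bp2, 0.09 for Rrs1, 0.31 for Nip7 (198 against 160) and -0.07 for Nop16. Gnl3, nucleostemin, a nucleolar GTPase named for its expression in stem cells, read 2271 against 2429 (log2 -0.10).

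**Figure D2:**
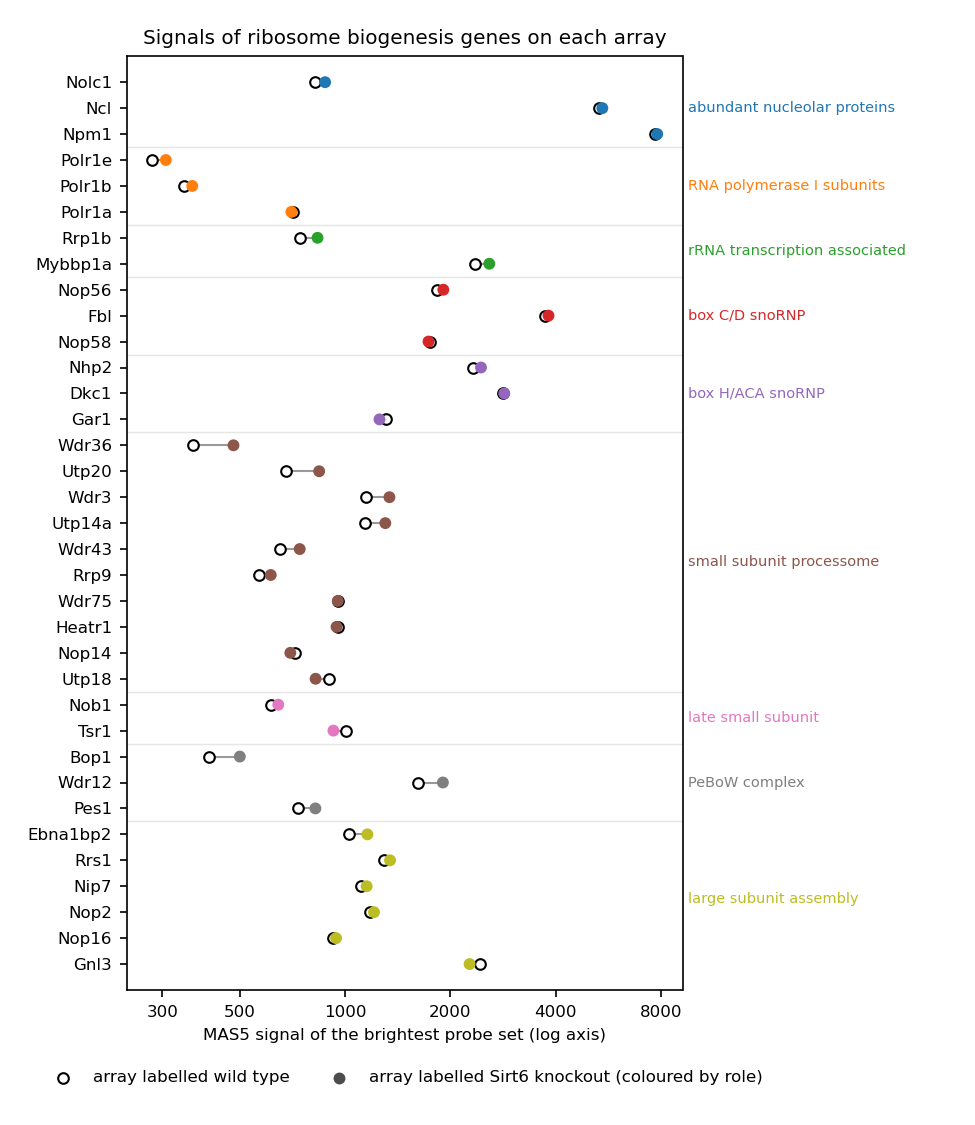
MAS5 signal of the brightest probe set of each of the 35 genes (horizontal log axis), with an open circle for the array labelled wild type and a filled circle, coloured by role, for the array labelled knockout. The circles nearly coincide for most genes, and the widest gaps are those of Wdr36 (479 against 367), Utp20 (842 against 679) and Bop1 (499 against 407).

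How far the probe sets of a gene agreed was examined next, since the lean toward higher signal rested on the brightest ones. Of the 72 probe sets, 65 were above the floor on at least 1 array, 64 on both, and 7 were under it on both. Of the 65, 43 had a ratio above 0, against 49.2% of all 19881 measured probe sets that name 1 gene. The 30 that were not the brightest of their gene had a median of 0.015 and 17 above 0, where 47.4% of 8327 such probe sets of all genes were. By 1.2-fold or more, 3 of these 30 were higher (Mybbp1a, Polr1e and Nip7) and 6 lower (Dkc1, Pes1, Ncl, Wdr12, Nolc1 and Rrp1b). The corresponding shares of all genes were 11.1% and 16.5%.

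For 22 genes, 2 or more probe sets passed the floor on each array. Among them, 9 had every such probe set above 0, 2 (Tsr1 and Wdr75) had every one below 0 and 11 were mixed. Over all genes 24.9% were wholly above 0 and 27.4% wholly below. The 9 were Bop1, Mybbp1a, Nhp2, Nip7, Npm1, Polr1e, Rrs1, Wdr36 and Wdr43. The spread (SD) within a gene was 0.22 in these 22 genes, as over all genes. Between probe sets above 250 on both arrays it was larger in the group, 0.21 over 16 genes against 0.17 over all 1997 such genes.

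**Figure D3:**
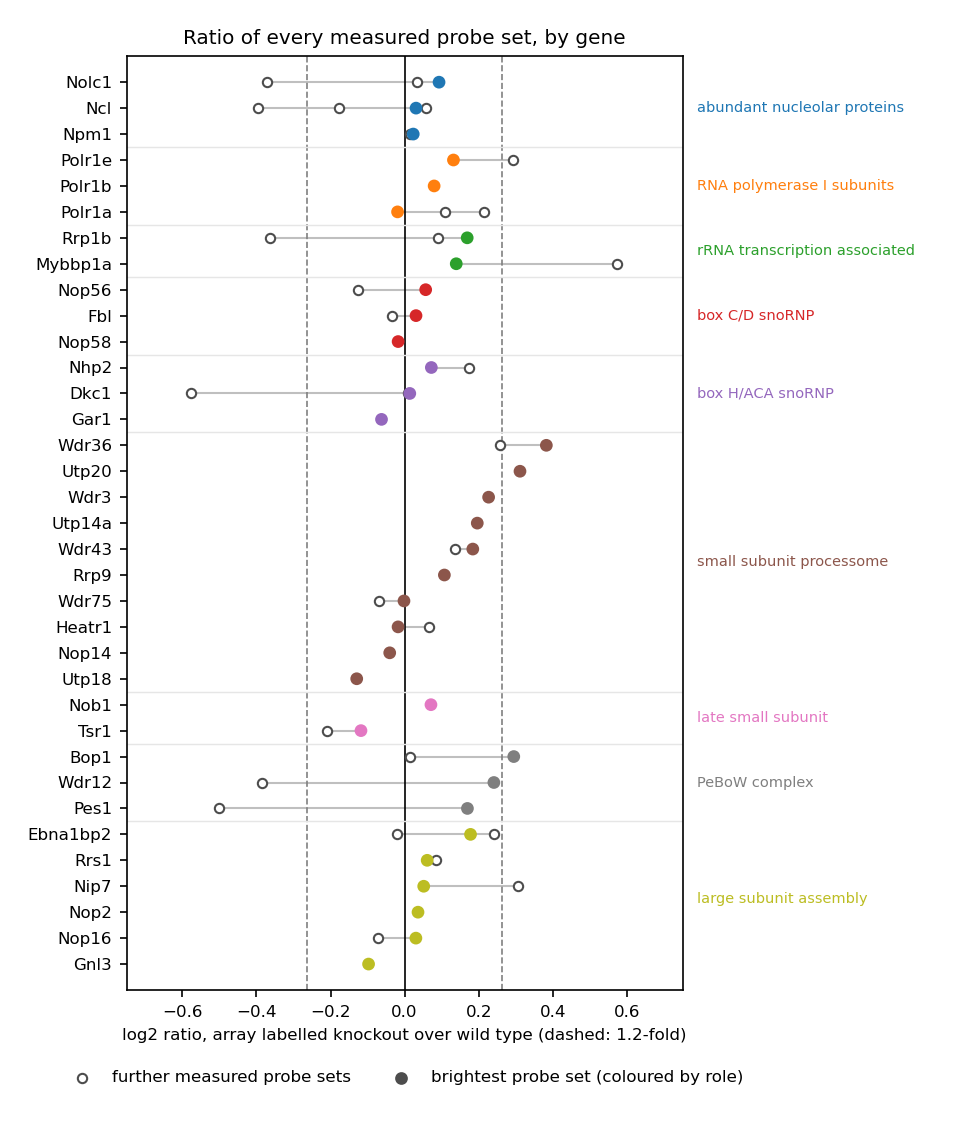
Log2 ratio of the array labelled knockout over the array labelled wild type for each of the 65 measured probe sets (horizontal axis), by gene and role; filled circles are the brightest probe set of a gene, open circles the others, and dashed lines mark 1.2-fold. Open circles reach from -0.58 (Dkc1) to 0.57 (Mybbp1a), wider than the filled ones, which run from -0.13 to 0.38.

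The ratios were also set beside the promoter motifs. The 7 genes with CACGTG had a median log2 ratio of 0.14 (range -0.13 to 0.31, 5 above 0), and the 23 with a window but no E-box had 0.06 (range -0.10 to 0.24, 16 above 0). The ranges overlap, and the E-box genes include both Utp20 and the lowest gene, Utp18. For CCGGAAG the order was the other way, with 0.05 over 11 genes that hold it and 0.07 over 19 that do not. Of the factors that bind E-boxes, Myc read 1656 against 1319 (log2 0.33) on its single probe set, Max 228 against 199 (log2 0.19) and Mycn 617 against 720 (log2 -0.22). The 3 measured probe sets of Mycn ran from -0.33 to 0.08.

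A further 96 genes of the same pathway were listed, of which 95 were measured. Their median log2 ratio was 0.011, and 52 of 95 read higher on the array labelled knockout, nearer to all genes than the 35 were. None was 1.5-fold different. By 1.2-fold or more, 3 of the 95 were higher and 3 lower, where 10.4% and 11.5% of all measured genes were. The higher ones were Riok2, a kinase of late small subunit maturation (787 against 572, log2 0.46, although another of its probe sets gave -0.24), Tbl3, a UtpB protein (204 against 155, log2 0.39), and Urb1 (207 against 158, log2 0.39). The lower ones were Taf1b, of the factor that selects the RNA polymerase I promoter (138 against 179, log2 -0.37), and the helicases Ddx31 (120 against 149, log2 -0.32) and Ddx47 (log2 -0.27). The other measured probe set of Ddx31 gave 0.026.

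Of 12 other RNA polymerase I genes, subunits and factors, 6 were above 0 and the median was 0.019, with Taf1b the farthest from 0. Polr1d had a log2 ratio of 0.17 and Polr1c of -0.18. Cd3eap (now Polr1g), the partner of Polr1e, had 0.08, Twistnb (now Polr1f) -0.027 and Znrd1 (now Polr1h) -0.03. The initiation factors Ubtf and Rrn3 had 0.09 and 0.06.

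Genes for the finished ribosome and those listed under RNA polymerases II and III did not lean the same way. This is a description, since 1 array per genotype gives no test of the difference between lists. The polymerase lists were taken by symbol, so subunits that polymerases share were not set apart. Polr2e (log2 -0.05), Polr2f (-0.05) and Polr2h (-0.15) also belong to RNA polymerase I, and Polr1c and Polr1d to RNA polymerase III. Of 40 measured cytosolic ribosomal protein genes 18 read higher on the array labelled knockout (median -0.0055). Of 76 mitochondrial ribosomal protein genes 28 did (median -0.06), of 11 RNA polymerase II subunits 3 (median -0.05) and of 8 RNA polymerase III subunits 3 (median -0.10). Their ratios ran from -0.51 (Rpl12) to 0.28 (Polr3d).

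**Figure D4:**
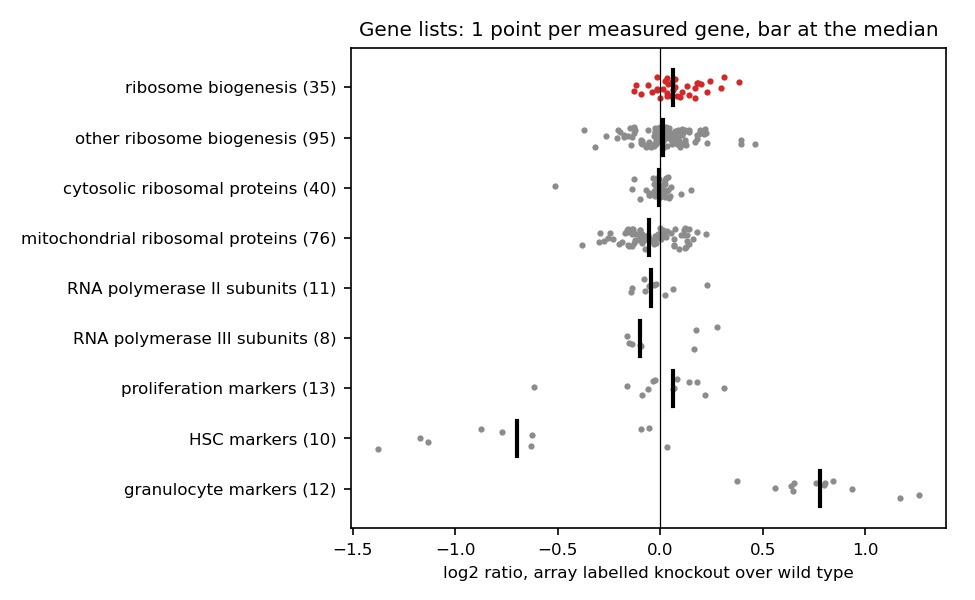
Log2 ratio of the array labelled knockout over the array labelled wild type for each measured gene of 9 lists (horizontal axis; number of genes in brackets), with a bar at each median. The ribosome biogenesis genes (red) centre on 0.06, as do the proliferation markers, and the other ribosome biogenesis genes on 0.011. The lists for the finished ribosome and RNA polymerases II and III centre between -0.10 and -0.0055, while HSC and granulocyte markers centre on -0.70 and 0.78.

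Many markers of cell types differed between the same arrays by more than any gene of the group did. All 12 granulocyte and granulocyte progenitor markers read higher on the array labelled knockout, with a summed signal of 37246 against 23234, and 10 were at least 1.5-fold higher. Of 10 HSC markers 7 were at least 1.5-fold lower (summed signal 4907 against 7395), while Kit read 1746 against 1709. All 6 measured B cell precursor markers read higher (summed 1326 against 648). Of these, Cd79a (88 against 38) passed the floor only on the array labelled knockout, so the filter fixed its direction. Pax5 (81 against 61) lay near the floor. Ebf1, of the same list, was under the floor on both arrays (48 against 51). So were the 4 T cell markers with a probe set (Cd3d, Cd3e, Cd3g and Cd4). Of 5 measured erythroid markers 4 read lower, but only Car1, a carbonic anhydrase (128 against 499), by 1.2-fold or more. The others were Klf1 (160 against 179) and, near the floor, Epor (70 against 74) and Hba-a2 (69 against 75). Tfrc, the receptor for transferrin, was higher (2608 against 1595), and the list summed to 3035 against 2421. Proliferation markers were divided, with 7 of 13 above 0, a median of 0.06 and summed signals of 33934 and 33678. The part of these cell type markers in the small lean of the ribosome biogenesis genes was not tested, and in such bulk RNA fewer cells of a type and less RNA per cell cannot be told apart. The single Sirt6 probe set read 174 against 124, higher on the array labelled knockout. Its place relative to a deleted part is unknown here, so it does not check the genotype, and every direction above rests on the labels.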

How the data were processed

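The deposited table holds 1 linear signal intensity per probe set and array, made by the authors with MAS5, per the submitters' processing notes; the labels state no version, scaling target or detection calls. Median signals were 60.7 (labelled knockout) and 60.8 (labelled wild type), so no further scaling was applied before log2 was taken. The number of arrays limits the precision.

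Probe sets naming 1 gene (34945) were named through the platform annotation and RefSeq (GRCm38.p6). The brightest of a gene stood for it. Values under the floor (percentile 50 of mean log2 signal) were raised to it, and genes above it on at least 1 array counted as measured (11547 of 18193). Genes were counted by fixed sizes of 1.2-fold and 1.5-fold, and values were given for the strongest, the brightest and the complex-forming genes and for the extremes of the other lists. The genes and lists were chosen with earlier results of these data known. For 3 list names (Polr1f, Polr1g and Polr1h) older symbols were matched by hand. Alternatives covered normalization, floor, pseudocount and probe set choice. The code (pandas 2.3.3, numpy 2.4.6 and statsmodels 0.14.6 under Python 3.11.15) was tested on simulated data.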

Additional observations from a re-analysis of the deposited data

How the results depend on the processing

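With quantile normalization, median centring, loess (span 0.3), the floor at percentile 25 or 75 or left out, a pseudocount equal to the floor, or no _x_at and _s_at probe sets (33 genes left), the median log2 ratio of the ribosome biogenesis genes ran from 0.05 to 0.08. Relative to the median of all genes under the same setting, 0.059 as reported, it fell to 0.031 with quantile normalization, 0.037 with the floor at percentile 25 and 0.027 with no floor. In these settings 54.6%, 54.7% and 55.7% of all genes lay above 0, and 22, 24 and 21 of the 35 lay above the median of all genes, against 26 as reported. Between 24 and 27 genes lay above 0, 2 or 3 were at least 1.2-fold different and 0 at least 1.5-fold different. Using the median of all measured probe sets per gene lowered the group median to 0.036 with 22 genes above 0. Taking the dimmest measured probe set, an alternative chosen after seeing the data, gave 0.014 with 19 genes above 0 and 9 at least 1.2-fold different (4 higher, 5 lower), where 49.5% of all genes lay above 0, 12.2% were at least 1.2-fold higher and 14.6% lower. The median of the other ribosome biogenesis genes was 0.031 with quantile normalization and 0.022 with loess. These normalizations moved the median of all genes from 0.0023 to 0.021 and 0.0068, and the cause of the larger list medians was not tested. No paired analysis was possible because each genotype had 1 array.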
